A study of Oncorhynchus mykiss with 23 samples.

Results

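Fast muscle of 4 rainbow trout that had gone without food for 30 days and had since been refed over 36 days (RF36) was compared with fast muscle of 4 control-fed trout (C0), which are 8 of the 23 fish measured. The fish were chosen by their feeding labels alone. All were trout of about 1 year from a spring strain, continually fed to satiation before the experiment. The refed fish were then deprived of food and refed at 3 times the satiation ration, while the control fish stayed on feeding to satiation in a tank of their own. The control fish on the arrays were taken at day 30, when the fast of the other tank ended, so the RF36 fish were taken 36 days later. Feeding history, tank and sampling day therefore cannot be told apart in any RF36 against C0 value. RNA from a slice of fast muscle beneath the dorsal fin was measured on Agilent arrays of 1 colour, each array holding a single fish. Each p-value rests on the spread between fish within a feeding condition, pooled over all 23 fish. Each slice is a bulk sample, in which fewer cells of a type and less RNA per cell cannot be told apart.

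A fish that feeds again after a fast can grow faster than a fish that never fasted, which is called compensatory growth. During a fast, muscle turns from glucose to fatty acids for fuel, breaks down its proteins through ubiquitin ligases and autophagy, and holds back protein synthesis. Feeding reverses these programmes through insulin, growth factors and amino acids. The comparison asked how far muscle that had been refed for 36 days differed from muscle that had been fed throughout.

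A level is given as the log2 signal of a probe minus the 75th percentile of its array, so that a probe at 0 is as bright as that percentile. Probes well above background on all 4 arrays of RF36 or of C0 were tested, 27533 of the 60195 on the array. The share of spots well above background was 45.2% to 55.8% on the RF36 arrays and 48.0% to 67.2% on the C0 arrays, and the number of arrays limits the precision. The first control array (C0-1) had the highest share, 67.2%, and correlated least with its own group (mean r = 0.94). It matched no column of the study's heat map above r = 0.60, whereas each other array matched one at 0.93 or more. The third control array (C0-3) was next lowest in its own group (mean r = 0.94), and the RF36 arrays agreed more closely (mean r = 0.98). Results are therefore also given without C0-1.

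RF36 muscle differed from C0 muscle at 4645 probes, 16.9% of those tested, by limma with Benjamini-Hochberg adjusted p under 0.05. Of these, 3472 (12.6%) were higher and 1173 (4.26%) were lower in RF36. The median difference was 0.85 log2 units among the higher probes and -0.98 among the lower ones, against 0.088 over all probes tested. Differences of at least 2 log2 units were found at 68 higher and 99 lower probes. Without C0-1 the same test called 3000 probes (10.9%), 2116 of them higher (7.69%) and 884 lower (3.21%), and without the RF36-2 array it called 2903. A total of 2711 probes were called in the same direction with and without C0-1.

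The 4 RF36 arrays lay wholly above the 4 C0 arrays at 3597 probes (13.1%) and wholly below them at 1371 (4.98%), together 18.0% of those tested. Calls that held without C0-1 and had no overlap numbered 1846 higher (6.70%) and 513 lower (1.86%). A probe kept through one group alone missed the brightness requirement on at least 1 array of the other group. There were 2603 such probes through C0, which gave 488 of the lower calls, and 1756 through RF36, which gave 352 of the higher calls. The share of calls that were higher in RF36 was 74.7% here. It was 92.2% when arrays were scaled to their medians, which shifts the median difference of all probes upward by 0.24, 84.1% with normexp background correction and 68.8% with quantile normalisation. The surplus of higher probes held under each of these scalings, but its size depended on them. The main fit pools the spread over all groups. C0 arrays agreed least within their group (mean r 0.939 to 0.962, against 0.965 to 0.981 elsewhere), so it can understate theirs. A fit of the 8 arrays alone called 1487 probes, and 20 of the 48 called genes named here missed the threshold in it. They were CYP1A3, ARHGEF16, TIMM50, PRDX3, TPI1, ACADM, HES6, ANAPC13, TPM1, XIRP2, RPL23, DNAJB9, PSMA1, TRIM63, KDR, CLDN5, FLCN, EIF2S2, RTN1 and HDDC3.

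**Figure D1:**
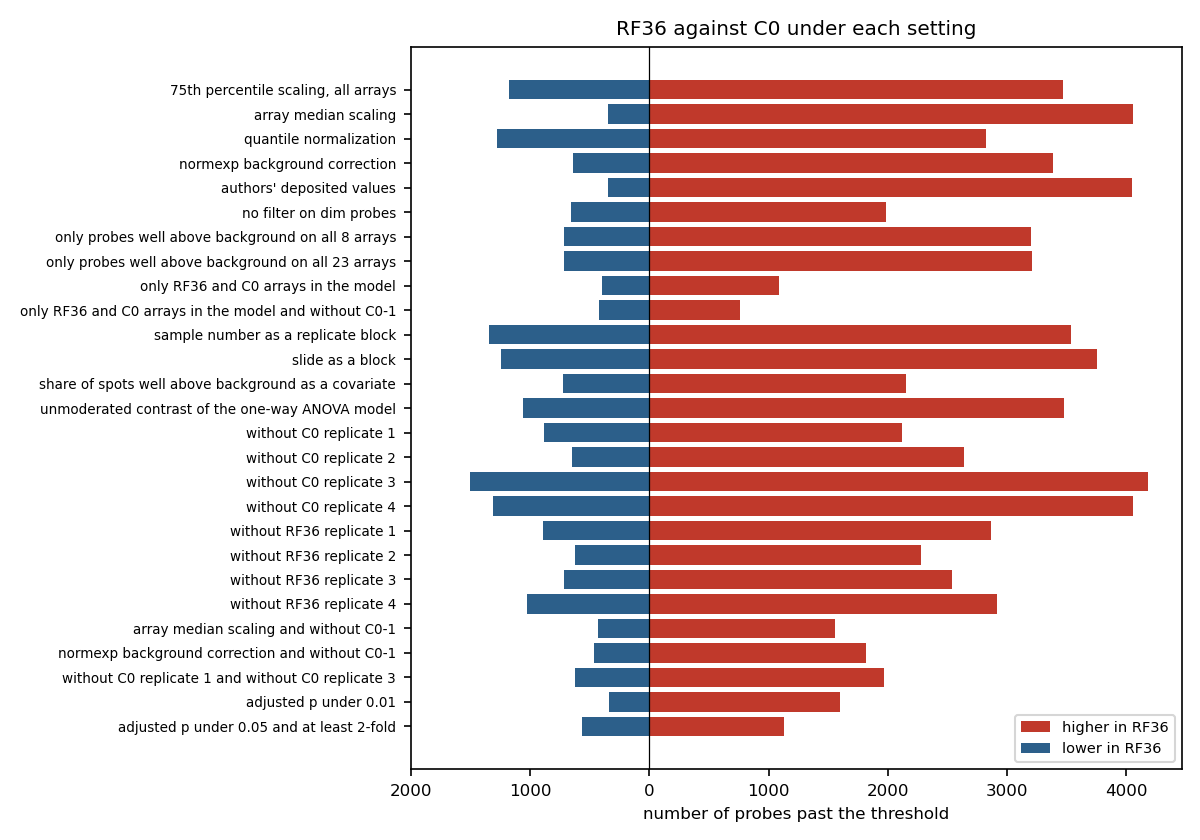
Number of probes past the threshold in RF36 against C0 (horizontal axis), higher in RF36 to the right and lower to the left, under each way of processing the arrays (vertical axis). Higher probes outnumber lower ones in every bar, from 3472 against 1173 as reported to 759 against 421 when only the 8 arrays without C0-1 are modelled.

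Gene names were available for few probes. A gene symbol was paired with 867 of the probes tested, standing for 636 genes, and 4417 of the called probes had no name of any kind. Most names come from the rows read of the study's heat map, which the study chose for differing among these same samples and ordered by profile, and the other rows were not used here. Counts of named genes are thus no sample of the genome and no independent evidence of a direction. Each gene is represented by its brightest probe. By this measure 52 of the 636 genes rose and 97 fell, and 23 rises and 67 falls also held without C0-1 and had no overlap between the 4 RF36 and 4 C0 fish. The 10 largest of these rises and the 10 largest falls are described below. Their lack of overlap was a condition of that choice and is a description only.

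The largest fall of a named gene was that of PDK1, a kinase of fuel choice. Pyruvate dehydrogenase kinase shuts the enzyme that passes pyruvate from glycolysis into the mitochondrion, and so spares glucose. PDK1 stood at 2.05, 2.81, 2.88 and 3.15 in the 4 C0 fish and at -0.87, -1.53, -2.28 and -2.32 in the 4 RF36 fish. No fish of one group came near the other, and the lowest control was C0-1. The fitted difference was -4.47 ± 0.55 log2 units (SE) (limma adjusted p = 2.1e-05). The probe was kept through C0 alone, since only 2 of the 4 RF36 arrays were well above background, and the size of the difference depended on the background correction, at -3.07 with normexp. A probe of PDK2, another kinase of the same enzyme, read -1.89, -1.25, -1.34 and -1.46 in C0 and was not well above background on any RF36 array. PDK2 was at least 1.70-fold lower in RF36 on this scale, a bound set against the dimmest probes that rise above background on those arrays. The p-value beside such a bound tests the difference as read, here -2.76 ± 0.48 (limma adjusted p = 0.000632).

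Of 8 fatty acid oxidation genes, 3 were called, all lower in RF36. CPT1A, which loads long-chain fatty acids onto carnitine for import into the mitochondrion, read 1.37, 1.34, 3.18 and 3.21 in C0 and 0.95, 0.85, -0.86 and -1.06 in RF36. Both groups split into a higher and a lower pair, without overlap between groups, and the gap between the closest fish was small beside the spread within each group. The difference was -2.30 ± 0.61 (limma adjusted p = 0.0129). The higher control pair, C0-3 and C0-4, shared slide 3. Within slides 1, 2 and 3 the CPT1A difference was -0.38, -1.48 and -4.06. With the slide as a block it was -2.33 (limma adjusted p = 0.0176). Both CPT1A probes were called lower, the dimmer one not without C0-1 (limma adjusted p = 0.137). ACADS, a dehydrogenase of short-chain fatty acids, read -1.81, -1.79, 0.12 and -1.18 in C0 and -2.0, -4.21, -3.15 and -3.65 in RF36, with a difference of -2.09 ± 0.49 (limma adjusted p = 0.00602). Its probe was kept through C0 alone, as 1 of 4 RF36 arrays was well above background, and the difference was -0.81 with normexp correction. ACADM, its medium-chain counterpart, was -0.88 ± 0.29 lower (limma adjusted p = 0.0412), but not past the threshold without C0-3 (adjusted p = 0.13), without C0-4 or without any 1 of the RF36 arrays, nor with the slide as a block (adjusted p = 0.0526). All 3 ACADM probes were called lower. Of 8 fatty acid oxidation genes tested, 3 fell, 0 rose and 5 did not pass the test, and the list's median difference was -0.44 against 0.088 over all probes. Over all probes tested 4.26% fell, and among named genes 97 of 636. The counts were also 3 and 0 without C0-1, and 2 and 0 with array median scaling. With so few members, nothing is read from the list as a whole.

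The control fish C0-3 stood apart in slow-fibre signal. A slow-fibre probe that the scanner files name SLOW_1 read -1.29, -1.71, 8.97 and 0.92 in C0 and 0.45, -0.10, -1.16 and 0.71 in RF36. C0-3 was far above every other fish of both groups. A companion probe, SLOW_2, too dim to be tested, read 6.98 in C0-3 and at most -0.58 in the other 7 fish. Slow fibres burn fatty acids, and C0-3 was also the highest or next to highest control for CPT1A, ACADS and ACADM. The highest control for CPT1A was C0-4, with 3.21, whose SLOW_1 level was 0.92. Without C0-3 the CPT1A difference was -2.0 and still called (adjusted p = 0.0348). Without C0-1 and C0-3 it was -2.30, as with all arrays, but missed the threshold (adjusted p = 0.0593), while PDK1 kept its call (adjusted p = 0.000394). The part of slow fibres in these results was not tested.

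Both called enzymes of glycolysis were higher in RF36. PKM, pyruvate kinase, which makes the pyruvate that the dehydrogenase takes up, read 1.81, 2.47, 2.29 and 2.62 in C0 and 3.56, 3.33, 2.99 and 3.17 in RF36. Every RF36 fish was above every control, with a difference of 0.97 ± 0.20 (limma adjusted p = 0.00231). TPI1, triose-phosphate isomerase, was 0.79 ± 0.27 higher (limma adjusted p = 0.046), and it lost the call without any 1 array except C0-4. Without C0-1 its adjusted p was 0.144, and the other of its 2 probes was not called. In the glycolysis list, which also holds PDK1, 2 of 6 genes rose and 1 fell. Among the 636 named genes 52 rose and 97 fell, and over all probes 12.6% and 4.26%. With so few members, nothing is read from this list as a whole. UQCR10, a small subunit of respiratory complex III, fell by 1.23 ± 0.35 (limma adjusted p = 0.0177), though not without RF36-4 or with array median scaling, and the other 2 respiratory chain genes tested read 0.30 on this scale. In the study's mitochondrial list, TIMM50, part of the inner-membrane protein import machinery, rose by 0.92 ± 0.21 (limma adjusted p = 0.00507). PRDX3, the mitochondrial peroxiredoxin, was 0.60 ± 0.17 higher (limma adjusted p = 0.0215), but not without C0-1 (adjusted p = 0.086), without C0-2 or without RF36-2, and the other of its 2 probes was not called. CPT1A was the 1 of that list's 5 tested members to fall and 2 rose, beside 4.26% and 12.6% over all probes. With so few members, nothing is read from it as a whole.

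**Figure D2:**
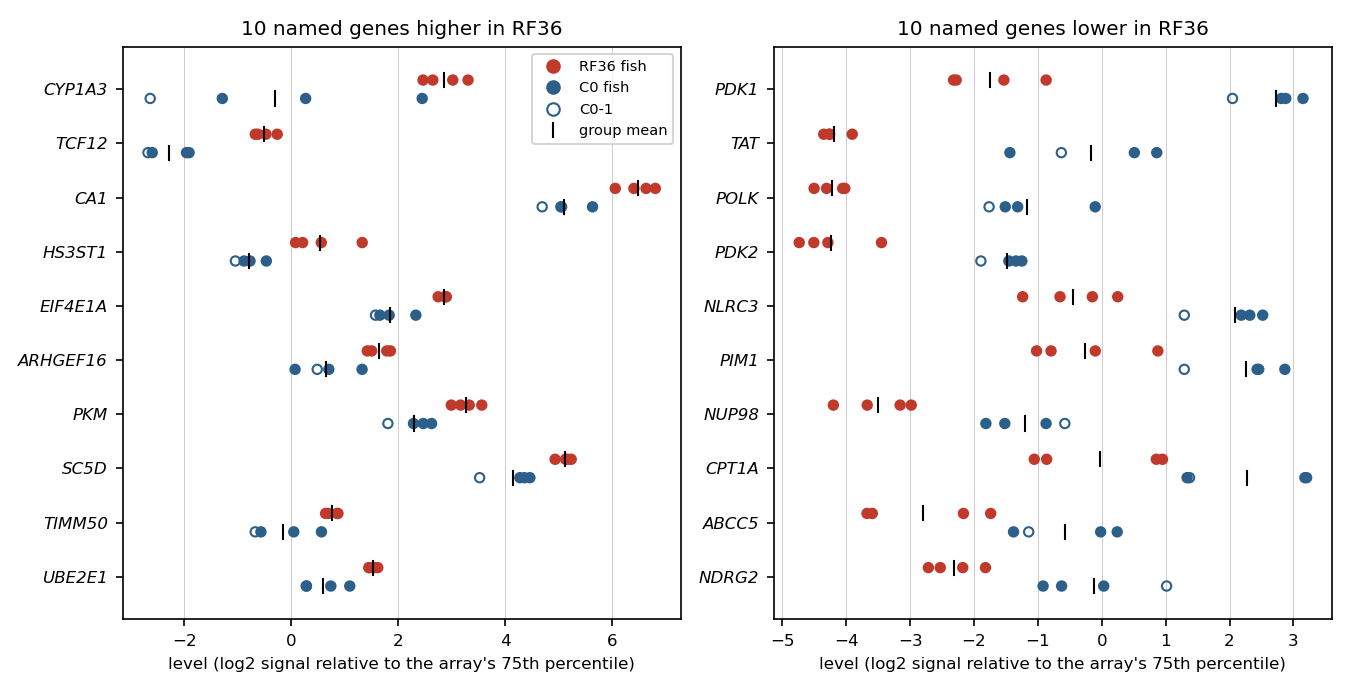
Level of each fish on the log2 scale (horizontal axis) for the named genes that rose most (10 genes) and fell most (10 genes) on the vertical axis, with RF36 fish in red, C0 fish in blue, the C0-1 fish as an open circle and the group mean as a bar. Groups do not overlap, since the choice of genes asked for that, and the widest gap is at PDK1, between -0.87 in RF36 and 2.05 in C0.

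Of 26 genes tested in the atrophy and autophagy list, 5 fell and 0 rose in RF36, beside 97 falls and 52 rises among the 636 named genes and 4.26% and 12.6% over all probes. With array median scaling 3 fell. PDK2 was 1 of the 5, and its probe, like that of NBR1, was kept through C0 alone. TP53INP2, which helps autophagosomes form, read 2.86, 2.76, 2.83 and 3.45 in C0 and 1.15, 1.13, 1.00 and 0.55 in RF36. The groups stood well apart, and the difference was -2.02 ± 0.35 (limma adjusted p = 0.000528). Both TP53INP2 probes were called lower, the dimmer one not without C0-1 (limma adjusted p = 0.0865). EIF4EBP3L, a repressor that holds the cap-binding factor eIF4E away from the ribosome, read 4.07, 5.34, 4.48 and 4.36 in C0 and 3.35, 3.22, 3.07 and 2.91 in RF36. All controls were higher, by 1.42 log2 units on average (difference -1.42 ± 0.22, limma adjusted p = 0.000255).

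The other called members of the atrophy and autophagy list were smaller or dimmer. NBR1, an autophagy receptor for ubiquitin-tagged cargo, was not well above background on any RF36 array and was at least 1.61-fold lower there (limma adjusted p = 0.0106), a call lost with array median scaling and with normexp correction. TRIM63 (MuRF1), the ubiquitin ligase of muscle wasting, read -0.68, -0.60, -1.14 and -0.67 in C0 and -1.25, -1.44, -1.36 and -1.88 in RF36. The groups did not overlap, but C0-3 lay close to the RF36 fish. TRIM63 was -0.71 ± 0.21 lower (limma adjusted p = 0.0213), a call that was lost without C0-1 (adjusted p = 0.0532), without C0-2 or without RF36-4, and with 3 scalings. Without C0-1, 6 list members fell and 0 rose, since TXNIP, an inhibitor of glucose uptake (adjusted p = 0.0316), and ATG12, part of the autophagosome's conjugation system (adjusted p = 0.043), came in and TRIM63 dropped out. The list's median difference was -0.12. FBXO32 (atrogin-1), the other main ubiquitin ligase of wasting, was too dim to be tested, with 2 of 4 C0 arrays and 0 of 4 RF36 arrays well above background.

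EIF4E1A, a form of the cap-binding factor itself, rose. It read 1.58, 1.66, 1.83 and 2.33 in C0 and 2.75, 2.88, 2.90 and 2.88 in RF36. The RF36 fish were nearly alike and all above the controls, with a difference of 1.00 ± 0.22, a 2.00-fold higher signal (limma adjusted p = 0.00325). GHR, the growth hormone receptor, went down: C0 fish read 0.47, 1.22, 0.59 and 0.61 and RF36 fish -0.42, -0.49, -0.38 and -0.78. Its difference was -1.24 ± 0.28 (limma adjusted p = 0.0041). GHR was the only called gene among 5 of the growth signalling list that could be tested, with C0-1 or without it. Over all probes 16.9% were called, and 10.9% without C0-1, so nothing is read from this list as a whole. TAT, tyrosine aminotransferase, which starts the breakdown of tyrosine, read -0.63, -1.44, 0.86 and 0.51 in C0. It was not well above background on any RF36 array and was at least 4.21-fold lower on the scale used here. The difference as read was -4.02 ± 0.42 (limma adjusted p = 5.45e-06), and with normexp correction it was -1.91, short of that bound.

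The remaining large falls were of mixed function. PIM1, a growth-promoting serine/threonine kinase, read 1.29, 2.46, 2.87 and 2.43 in C0 and -0.79, -1.02, -0.10 and 0.88 in RF36, a difference of -2.52 ± 0.49 (limma adjusted p = 0.00159), with 2 of its 3 probes called lower. NLRC3, an innate immune sensor that damps inflammatory signalling in mammals, read 1.29, 2.18, 2.52 and 2.32 in C0 and -0.65, -1.24, -0.15 and 0.25 in RF36, a difference of -2.53 ± 0.44 (limma adjusted p = 0.000637). In both genes C0-1 was the control nearest to the refed fish. NDRG2, a gene linked to slowed growth and differentiation, read 1.01, 0.03, -0.63 and -0.92 in C0 and -1.82, -2.18, -2.72 and -2.53 in RF36, where 1 array was well above background (difference -2.18 ± 0.37, limma adjusted p = 0.000495, and -1.02 with normexp correction). Here C0-1 was the control farthest from them.

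Dimmer falls followed. POLK, a DNA polymerase that copies past damaged bases, was at least 2.11-fold lower (limma adjusted p = 6.27e-05). NUP98, a protein of the nuclear pore, was at least 2.08-fold lower (limma adjusted p = 0.000289). Neither was well above background on any RF36 array. The bounds hold on the scale used here, and with normexp correction POLK (-0.91) and NUP98 (-0.83) fell short of them. Their p-values test the differences as read. ABCC5, an export pump for cyclic nucleotides and other organic anions, was -2.22 ± 0.58 lower (limma adjusted p = 0.011), with 1 of 4 RF36 arrays well above background, and this call was lost with normexp correction.

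Among the rises, CYP1A3 was the largest and the most uneven. This cytochrome P450 is the trout form of the enzymes that the aryl hydrocarbon receptor induces. It read -2.63, -1.29, 2.45 and 0.27 in C0, with 3 arrays well above background, and 2.47, 3.31, 3.02 and 2.65 in RF36. C0-3 all but reached the lowest RF36 fish, whereas C0-1 was the lowest control. The difference was 3.16 ± 0.66 (limma adjusted p = 0.00246), 2.38 without C0-1 (adjusted p = 0.0112) and 2.35 with normexp correction, and it missed the threshold when only the 8 arrays were modelled.

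Other rises were in narrower ranges. CA1, a carbonic anhydrase, which turns carbon dioxide and water into bicarbonate, read 4.69, 5.06, 5.04 and 5.63 in C0 and 6.81, 6.63, 6.06 and 6.41 in RF36. Every refed fish was above every control (difference 1.37 ± 0.25, limma adjusted p = 0.000774). SC5D, a late enzyme of cholesterol synthesis, read 3.52, 4.36, 4.27 and 4.46 in C0 and 4.93, 5.13, 5.24 and 5.17 in RF36 (difference 0.96 ± 0.21, limma adjusted p = 0.0032). HS3ST1, a sulfotransferase of heparan sulfate chains, read -1.04, -0.88, -0.77 and -0.46 in C0 and 0.083, 0.21, 0.56 and 1.33 in RF36. Its groups were clear of each other, with RF36-4 well above the other refed fish. It rose by 1.34 ± 0.36 (limma adjusted p = 0.0145), though not without RF36-4. ARHGEF16, a guanine nucleotide exchange factor, rose by 1.00 ± 0.24 (limma adjusted p = 0.00738). UBE2E1, a ubiquitin-conjugating enzyme, read 0.29, 0.28, 0.74 and 1.10 in C0 and 1.47, 1.62, 1.56 and 1.45 in RF36. The refed fish were nearly alike and all above the controls, and it rose by 0.92 ± 0.16 (limma adjusted p = 0.000726).

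Of 9 myogenic genes tested, 2 rose and 0 fell, beside 12.6% and 4.26% over all probes, with a median difference of 0.34. With array median scaling 4 rose. TCF12, the partner with which myogenic basic helix-loop-helix factors bind DNA, read -2.68, -2.60, -1.91 and -1.96 in C0, with 2 arrays well above background, and -0.47, -0.26, -0.67 and -0.62 in RF36. The gap between groups was wider than the spread within either (difference 1.78 ± 0.31, limma adjusted p = 0.000591), although with normexp correction the difference was 0.62. HES6, which promotes myogenic differentiation, read -0.13, 0.51, 0.70 and 0.58 in C0 and 1.26, 1.26, 1.20 and 1.22 in RF36. All controls were below all refed fish (difference 0.82 ± 0.17, limma adjusted p = 0.00272). This differs from the paper, which describes HES6 as rising after refeeding without exceeding control fish. The HES6 call was lost when only the RF36 and C0 arrays were modelled. MYF5, a myogenic determination factor, read -0.54 ± 0.21 on the difference scale (limma adjusted p = 0.0821), and -0.71 without C0-1, where it passed (adjusted p = 0.0308).

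The lists of structural and proliferation genes are read beside the 16.9% of all probes that were called. In the study's extracellular matrix list, chosen on these samples, 1 of 21 genes rose and 0 fell, with a median difference of 0.37. The 1 gene was MFAP2, a microfibril protein (difference 0.95 ± 0.32, limma adjusted p = 0.0444), and without C0-1 its adjusted p was 0.119 and no gene of the list was called. The other 2 MFAP2 probes, at 0.17 and 0.44, were not called. MFAP2 also lost the call without C0-2 or C0-4 and without RF36-2, RF36-3 or RF36-4. None of 9 collagen genes passed the test by limma, with a median difference of 0.29. COL12A1 read 0.90 ± 0.37 (limma adjusted p = 0.0955) and COL6A3 0.71 ± 0.34 (limma adjusted p = 0.156), in both of which C0-1 was the lowest of the 8 fish. In the study's cell cycle list, ANAPC13, a subunit of the anaphase-promoting complex, rose by 0.84 ± 0.18 (limma adjusted p = 0.00285) and PIM1 fell. The other 15 of 17 did not pass, and the median difference was -0.39.

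Of 19 fast fibre proteins, 1 rose and 1 fell, beside 12.6% and 4.26% over all probes, with a median difference of 0.20. TPM1, tropomyosin, was 0.69 ± 0.24 higher (limma adjusted p = 0.0491) at its brightest probe, while its other 2 probes, at 0.095 and -0.51, were not called. That call was lost without C0-3 (adjusted p = 0.162), without C0-4 and without each RF36 array, and with the slide as a block (adjusted p = 0.0525). XIRP2, an actin-binding protein of the sarcomere's attachment sites, fell by 1.03 ± 0.28 (limma adjusted p = 0.0135), but not without C0-1 (adjusted p = 0.0606). The number of fast fibre genes with a higher mean in RF36 was 15 of 19 here and 9 with quantile normalisation, so no direction of the list is given.

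**Figure D3:**
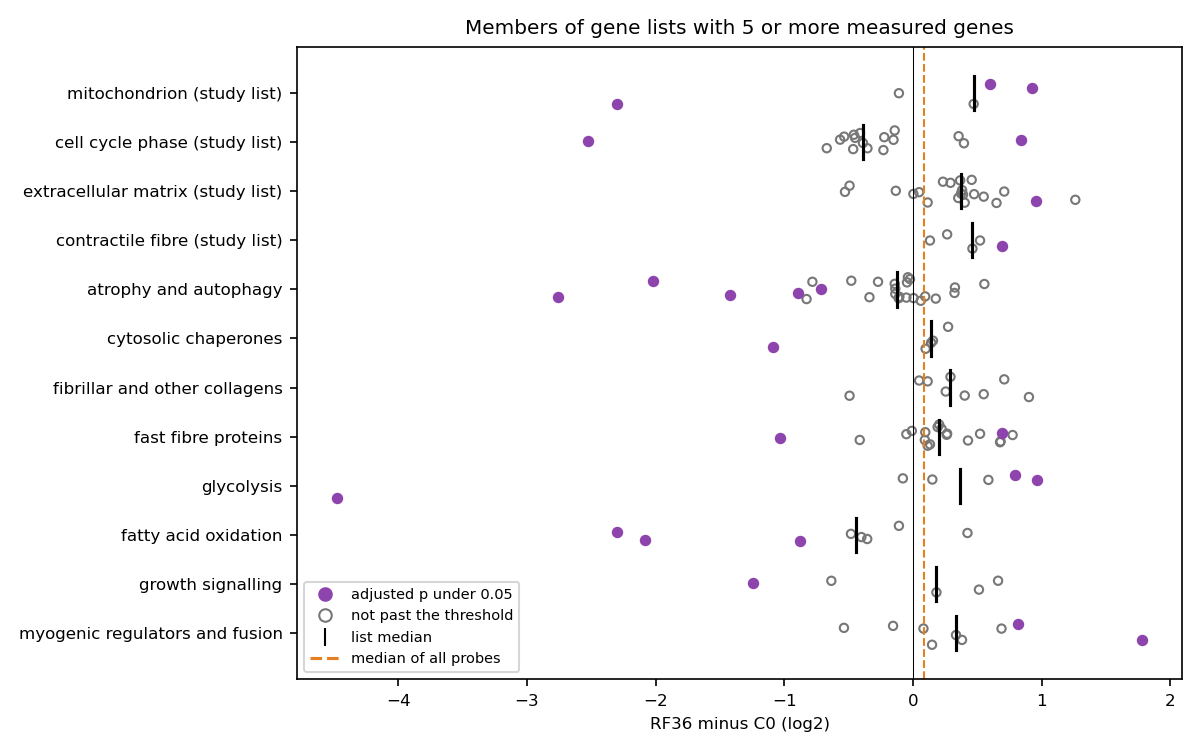
Difference RF36 minus C0 on the log2 scale (horizontal axis) for each tested member of the lists with 5 or more tested genes (vertical axis), filled where the adjusted p is under 0.05, with the list median as a bar and the median of all probes, 0.088, as a dashed line. Most members of most lists were not called, as were most of all probes tested (16.9% called). The called members of the atrophy and autophagy list and of the fatty acid oxidation list all lie below 0. Among all named genes, 97 of the 149 called were lower too, so this direction is not particular to these lists.

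Genes of protein synthesis and folding were thinly covered by names. The study's lists hold 65 translation, 57 ribosome biogenesis and 40 folding genes, of which 3, 2 and 4 could be tested. With so few, nothing is read from these lists as a whole. Over all probes 12.6% rose and 4.26% fell, and among the 636 named genes 52 and 97. Of 3 tested members of the study's translation list, RPL23, a protein of the large ribosomal subunit, fell by 0.88 ± 0.22 (limma adjusted p = 0.00914), a call lost with array median scaling. In ribosome biogenesis, 0 of 2 tested members were called, and NHP2L1, which also belongs to the spliceosome list, read -0.67 ± 0.24 (limma adjusted p = 0.0529), or -0.95 without C0-1 (adjusted p = 0.00438). TCP1, a subunit of the chaperonin that folds actin and tubulin, read 0.52, 0.43, 0.16 and 0.28 in C0 and -0.74, -0.85, -0.72 and -0.65 in RF36. Its fall of 1.09 ± 0.16 was narrow in spread and clear of any overlap (limma adjusted p = 0.000133). DNAJB9, a co-chaperone of the endoplasmic reticulum, was higher by 1.43 ± 0.36 (limma adjusted p = 0.00882), with 2 of 4 C0 arrays well above background, a call lost with normexp correction. The paper places RPL23, NHP2L1, TCP1 and DNAJB9 in its signature of genes above control fish after refeeding, which it does not split by day. Of these, only DNAJB9 was higher in RF36 here, which differs from the paper. The TCP1 fall kept its call under every setting tried. The proteasome subunit PSMA1 was 0.65 ± 0.22 higher (limma adjusted p = 0.0478), a call lost without C0-1 (adjusted p = 0.184), without C0-2 and without each RF36 array, and 2 of its 3 probes were called. None of 3 chromatin methyltransferases was called by limma, with a median difference of -0.23.

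Fast muscle markers were bright in both groups, with a level of the summed signal of 6 tested markers of 10.9 to 11.5 in RF36 and 10.4 to 11.4 in C0, and TPM1 alone of them was called. Both endothelial markers tested were lower in RF36, beside 4.26% of all probes and 97 of the 636 named genes. Another named endothelial marker was too dim to be tested, and 2 genes do not describe a cell type. KDR, a receptor for vascular endothelial growth factor, read -1.75, -1.07, 0.11 and -0.59 in C0 and -2.29, -2.61, -1.92 and -1.55 in RF36, where 1 array was well above background (difference -1.27 ± 0.31, limma adjusted p = 0.00847). C0-1 overlapped the refed fish, and the call was lost with array median scaling and with quantile normalisation. CLDN5, a tight-junction protein of vessel walls, was -0.94 ± 0.23 lower (limma adjusted p = 0.0083). For CLDN5, too, the fish of both groups overlapped. Its call was lost when only the RF36 and C0 arrays were modelled, with or without C0-1. It was also lost in the main fit without both C0-1 and C0-3. The summed level of KDR and CLDN5 was -1.27 to -0.34 in RF36 and -0.18 to 0.95 in C0. The part of these markers in the other results was not tested. All 7 connective tissue markers and both immune markers missed the threshold by limma, with summed levels of 9.66 to 10.2 in RF36 and 8.98 to 10.0 in C0 for connective tissue and of 2.77 to 3.19 and 2.01 to 3.00 for immune cells. No gene of the red blood cell, fat cell, skin, nerve or slow muscle marker lists had a probe that could be tested. The slow-fibre probes SLOW_1 and SLOW_2 are given above.

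Levels at the other feeding times are given beside these for orientation, since every comparison with C0 shares the same 4 controls. Each of the other groups had 5 fish: fasted (F0), refed for 4 days (RF4) and refed for 11 days (RF11). PDK1 was 4.02 ± 0.66 (mean ± SD) in F0, -1.58 ± 1.12 in RF4, -1.50 ± 1.03 in RF11, -1.75 ± 0.69 in RF36 and 2.72 ± 0.47 in C0. Control fish lay nearer to the fasted level than to the refed one. GHR was 2.03 ± 0.29 in F0, -0.59 ± 0.59 in RF4, -0.61 ± 0.45 in RF11, -0.52 ± 0.18 in RF36 and 0.72 ± 0.34 in C0. TP53INP2 differed from both, at 0.97 ± 0.55 in F0, 0.03 ± 0.73 in RF11, 0.96 ± 0.28 in RF36 and 2.98 ± 0.32 in C0, with the control mean above the fasted one.

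Rises had more than one course. EIF4E1A was -0.83 ± 0.49 in F0, 1.30 ± 0.14 in RF4, 2.24 ± 0.22 in RF11, 2.85 ± 0.071 in RF36 and 1.85 ± 0.34 in C0. CA1 was 4.10 ± 0.31 in F0, 5.75 ± 0.38 in RF11, 6.48 ± 0.32 in RF36 and 5.11 ± 0.39 in C0. TCF12 was -2.50 ± 0.64 in RF11 and -2.28 ± 0.41 in C0, and only RF36 stood above C0, at -0.51 ± 0.18. The TCF12 probe was kept through RF36 alone and is near background in C0, so the size of this rise is uncertain. UBE2E1 was highest in F0, at 2.45 ± 0.14, and TIMM50 in RF4, at 1.61 ± 0.24.

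**Figure D4:**
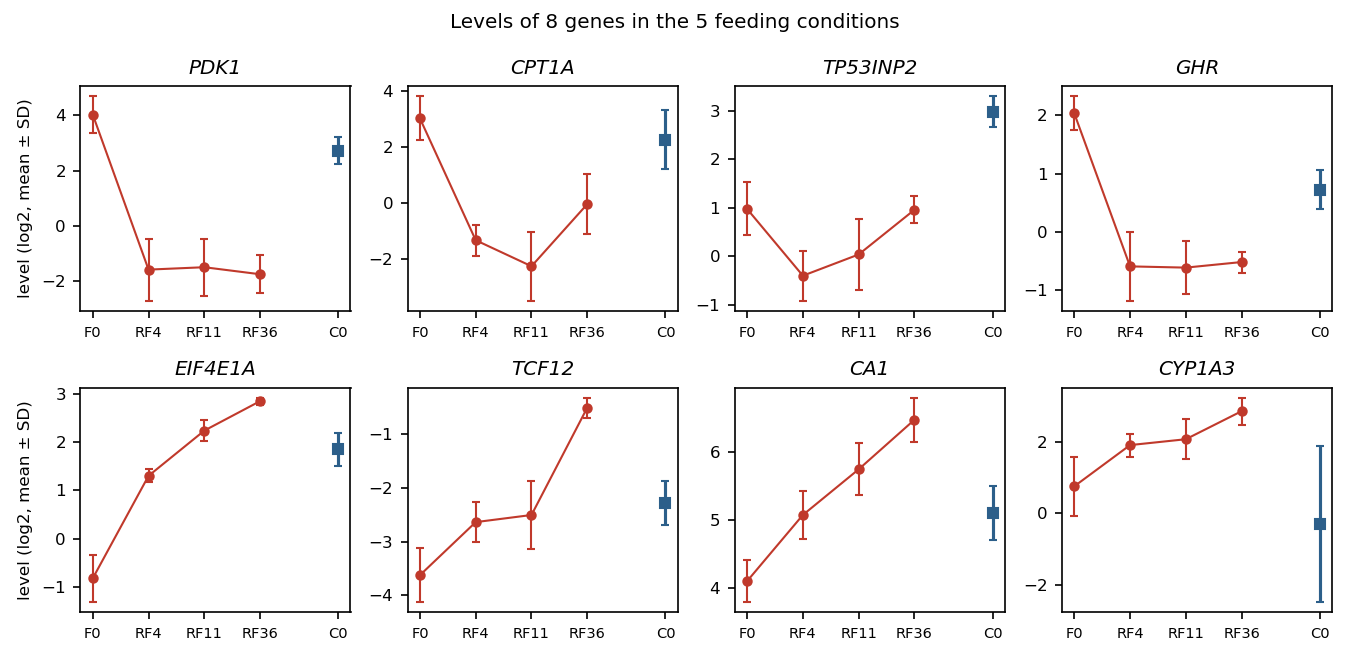
Mean level on the log2 scale (vertical axis, bars show SD) of 8 genes in fasted fish (F0), in fish refed for 4, 11 and 36 days, joined by a line, and in control fish (C0, square). C0 lies nearer to F0 than to the refed groups for PDK1, and only RF36 stands above C0 for TCF12, whose probe was kept through RF36 alone.

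RF36 was set against RF11 in the same model to see which levels still differed between refed fish, and 2171 probes (7.89%) were called, 1115 higher (4.05%) and 1056 lower (3.84%) in RF36. Among the 20 genes that rose or fell most, 4 differed from RF11. These 20 were chosen by values of the same RF36 arrays, so that count is a description only. TCF12 was 2.00 higher (limma adjusted p = 0.000254), HS3ST1 1.31 (adjusted p = 0.0202) and PKM 0.72 (adjusted p = 0.0211). The TCF12 probe was kept through RF36 alone. This test was not repeated with normexp correction, which shrank the TCF12 difference from C0. CPT1A was also higher in RF36 than in RF11, by 2.22 (limma adjusted p = 0.0207), while it was lower than in C0. The other 16 did not pass this test.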

How the data were processed

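The authors scanned 1-colour arrays with Agilent Feature Extraction 10.7.3.1, as the submitters' processing notes name it, and deposited for each array the processed spot intensity, background-subtracted and detrended and not scaled between arrays. The deposited median pixel intensity of spot and background served the normexp alternative (offset 50). The authors' deposited series table is on the log2 scale and equals these values minus 1 constant per array, which makes the array medians equal.

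Here control spots (the array has 62976 spots, 61657 of them not controls) and 145 outlier spots were left out, spots of a probe were averaged as log2 values, and each array's 75th percentile was subtracted. A total of 137 probes missing on an array were left out, and 0 spots were saturated. limma 3.58.1 (R 4.3.3) was fitted to all 23 arrays with 1 mean per feeding condition. The contrasts RF36 minus C0 and RF36 minus RF11 were two-sided, with Benjamini-Hochberg adjustment over all probes tested. Tables were made with Python 3.11.15. On simulated data for RF36 against C0 with 27533 probes, 200 of them changed, the test recovered 38% of changes of 1 log2 unit (77 calls, 1 false) and 94% of changes of 2 (195 calls, 7 false). With no change it called 0. The simulated noise was independent between probes and had the same spread in every group, whereas C0-1 and C0-3 agreed less with their group. These rates may therefore not hold for the real arrays.

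Names come from the scanner files and from 1252 rows read of the study's heat map. A gene is represented by its brightest probe, averaged over the 23 arrays. Named are the 10 rises and 10 falls with the largest difference that passed with and without C0-1 and had no overlap between fish. Of the up to 4 members of each list with the largest difference, those called with or without C0-1 are also named. Where none was called, the 2 largest are named, in lists with 5 or more tested genes. Larger differences that were not called can thus go unnamed. Genes a paragraph is about are named too. SLC38A9, DEPDC5, FLCN, EIF2S2, CYP46A1, PTP4A3, APMAP, TRIM63, TXNIP, ATG12, SLOW_1, SLOW_2, RTN1 and HDDC3 were named after their values were seen. Groups, members and lists were chosen with earlier results of these data known. A bound for a probe not well above background on any array of a group sets the bright group's mean against the higher, per array, of the probe's own signal and the lowest signal well above background. Such a bound carries no error and holds on this scale only, since TAT, POLK and NUP98 differed by less with normexp correction. Alternatives were other scalings, normexp, the authors' values, other filters, the slide or sample number as a block, the share of bright spots as a covariate, 2 groups only, unmoderated tests, stricter thresholds and each array left out. The methods give 5 fish per condition with 1 control array discarded, and the other RF36 fish, body weights and the later control fish were not analysed here. 1 member of a list is not reported here.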

Additional observations from a re-analysis of the deposited data

Results flagged for a closer look

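Of 118 groups of 4 fish examined for 1 fish far from the rest, 6 held one, where chance alone gives about 1 in 20. EIF4E1A read 2.75 in RF36-1, below the other 3 RF36 fish by a gap that filled most of a very small range. ANAPC13 read 0.43 in RF36-4, likewise within a narrow range. TP53INP2 read 3.45 in C0-4, above the other controls. COL6A3 read 3.42 in C0-1, below the other controls, which lay between 5.04 and 5.13. TRIM63 read -1.14 in C0-3, below the other controls. ATG12 read 1.20 in C0-1, below the other controls.

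Of the 59 tested genes named in the text, 15 differed between RF36 and RF11 (limma adjusted p under 0.05), beside 7.89% of all probes tested. The distance of these genes from C0 was thus not the same at both refeeding times. The named genes were chosen in large part by their RF36 against C0 values, which use the same RF36 arrays, so the count is a description only. Genes higher in RF36 than in RF11 were TCF12 by 2.00 (adjusted p = 0.000254), HS3ST1 by 1.31 (0.0202), PKM by 0.72 (0.0211), CPT1A by 2.22 (0.0207), PRDX3 by 0.79 (0.00419), ANAPC13 by 0.76 (0.00726) and DEPDC5 by 0.75 (0.0222). Of these, the TCF12 probe was kept through RF36 alone. Some matrix genes were also higher in RF36 than in RF11: MFAP2 by 1.47 (0.00394), COL12A1 by 1.19 (0.0386), COL6A3 by 1.20 (0.0251) and SPARC, a collagen-binding matrix protein, by 0.84 (0.0411). The collagen gene COL1A2 did not pass this test, and the matrix and collagen lists were not counted for it. Genes lower in RF36 than in RF11 were TCP1, with a difference of -0.84 (0.00135), KDR with -1.38 (0.0055), PTP4A3 with -0.81 (0.0315) and TRIM63 with -0.64 (0.0452).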

How the results depend on the processing

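The number of probes differing between RF36 and C0 was 4645 and ranged from 2903 (without RF36-2) to 5690 (without C0-3) as each array was left out. C0-1 and RF36-2 were the only single arrays whose removal moved it by over 1.5 times, to 3000 and 2903. It was 2638 with no filter on dim probes, where 60058 probes were tested, 2877 with the share of spots well above background as a covariate, 1487 with only the 8 arrays modelled and 1180 with those but C0-1. Counts were 1936 at an adjusted p under 0.01 and 1699 with a 2-fold minimum. Alternatives chosen after seeing the data gave 1987 with array median scaling without C0-1, 2280 with normexp without C0-1 and 2594 without C0-1 and C0-3. The cause of these changes was not tested, beyond the smaller number of arrays or the stricter threshold that some impose.

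The share of calls higher in RF36 was 74.7%, and 70.5% to 80.3% as each array was left out. It was 92.2% with array median scaling, 92.1% with the authors' values, 84.1% with normexp, 68.8% with quantile normalisation, 81.8% with probes well above background on all 8 or all 23 arrays, 76.6% unmoderated, 73.1% with 2 groups only, 64.3% with those but C0-1, 82.6% at the stricter p and 66.7% with a 2-fold minimum. With median scaling and with normexp, each without C0-1, it was 78.4% and 79.6%.

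The 10 named rises and 10 named falls passed by construction, and 19 to 20 did so as each array was left out. Only 11 and 9 of them could be tested among probes well above background on all 8 or all 23 arrays, and all of those passed. With 2 groups only and without C0-1, 13 passed.

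Among the 59 tested genes named in the text, 9 signs turned. Within slide 2 NHP2L1 read 0.19, ACADM 0.083 and ATG12, not called, 0.47, within slide 1 APMAP read -0.49, and within slide 3 SPARC read -0.029. SLOW_1, not called, ranged from -2.89 to 0.67 as each array was left out and read 0.67 without C0-3, 0.37 without C0-1 and C0-3, 2.16 within slide 1 and 1.59 within slide 2. With the sample number as a replicate block, 4878 probes were called, 72.4% of them higher, and no called gene named here was lost. Fish with the same number in RF36 and C0 did not deviate together throughout (r = 0.19, 0.080, 0.13 and -0.14). Whether they shared more than a number was not tested. With the slide as a block, 5000 probes were called, and ACADM and TPM1 lost the call. Normexp correction shrank the differences of dim genes by over 1.5 times, among them POLK to -0.91, PDK2 to -1.01, NUP98 to -0.83, TAT to -1.91 and SLC38A9 to -1.12. Signal near background limits PDK1, TAT, POLK, PDK2, NUP98, ABCC5, NDRG2, ACADS, KDR and NBR1 in RF36 and TCF12, DNAJB9 and CYP1A3 in C0.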

Other observations

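Genes by which lysosomes and the mTORC1 growth pathway sense amino acids were named after their values were seen, and no list of them was counted. SLC38A9, a lysosomal amino acid transporter and sensor, read 0.08, 0.85, 0.39 and 0.54 in C0 and -1.83, -0.80, -2.02 and -1.03 in RF36, where 3 arrays were well above background. The groups did not overlap (difference -1.88 ± 0.29, limma adjusted p = 0.000237), but the gap between the closest fish was smaller than the spread within RF36. The SLC38A9 probe was kept through C0 alone. FLCN, a partner of the Rag GTPases, was -0.60 ± 0.18 lower (limma adjusted p = 0.023), but not without C0-3 (adjusted p = 0.0548), without RF36-1 or without RF36-3. The FLCN call was also lost with array median scaling, with normexp, with the authors' values and with no filter on dim probes. DEPDC5, a subunit of the GATOR1 complex that restrains mTORC1, read -0.58 ± 0.21 (limma adjusted p = 0.0609), and 1 of its 2 probes was called lower.

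Some genes had several probes that all gave the same call, and these too were named after their values were seen. All 3 probes of EIF2S2, a subunit of the factor that brings the initiator tRNA to the ribosome, were higher in RF36, by 0.84, 0.84 and 0.82 log2 units. All 4 probes of CYP46A1, an enzyme that hydroxylates cholesterol, were lower, with differences of -1.65, -1.18, -1.89 and -1.68. Both probes of RTN1, a reticulon of the endoplasmic reticulum (brighter probe 0.80 ± 0.18, limma adjusted p = 0.00464), and of HDDC3 (0.78 ± 0.19, limma adjusted p = 0.00763) rose, and both of PTP4A3, a protein tyrosine phosphatase, fell (brighter probe -1.05 ± 0.24, limma adjusted p = 0.00472). Among 148 genes with 2 or more tested probes, 8 had all probes called higher, 13 had all called lower and 0 had calls in opposite directions. Over all probes 12.6% were higher and 4.26% lower, and by brightest probe 52 and 97 of the 636 named genes. The genes named in this paragraph were picked for the agreement of their probes, which is thus a description only.

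The 2 probes named APMAP, a plasma membrane protein of fat cells, disagreed. The brighter read 0.79 ± 0.46 (limma adjusted p = 0.246) and the other fell by 2.79 ± 0.41 (limma adjusted p = 0.000129), so the name alone gives no direction for this gene.

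Over the 3472 probes higher in RF36 than in C0, fish averaged 1.18 ± 0.30 (SD over fish) in C0, 1.31 ± 0.072 in F0, 1.98 ± 0.074 in RF4, 2.04 ± 0.10 in RF11 and 2.13 ± 0.077 in RF36. Over the 1173 lower probes it was 0.32 ± 0.13 in C0, 0.13 ± 0.084 in F0, -0.29 ± 0.064 in RF4, -0.53 ± 0.10 in RF11 and -0.83 ± 0.18 in RF36. The C0 and RF36 values were used to choose these probes, which also shapes how far the other groups lie from them. All these means are a description only.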
